A study of Mus musculus with 3 samples.

Results

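Focal bivalent regions are short stretches of chromatin called for trimethylation of lysine 27 on histone H3 (H3K27me3) that also carry 1 or 2 called regions of trimethylation of lysine 4 (H3K4me3). They were followed here in mouse primordial germ cells, from which oocytes and sperm later develop. The members were the H3K27me3 regions of 1000 to 6000 bp that overlapped exactly 1 or 2 H3K4me3 regions by at least 1 bp. Regions on X, Y and the mitochondrial genome and those touching chromosome 5 between 111 and 122 Mb were left out. This gave 3463 regions, which is 18.5% of the 18731 H3K27me3 regions in the list (95% Wilson interval 17.9 to 19.1%). The members were thus chosen by the measured H3K27me3 width and the measured overlap with H3K4me3, so the values of both are descriptions and were not tested.

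The series holds 3 samples of 1 group each, the H3K27me3 precipitation, the H3K4me3 precipitation and an input control, and each sample stands for 2 replicates. All 3 came from the same cells: E11.5 germ cells sorted as GFP-positive from the pooled gonadal regions of several embryos, bred from a B6 line with an Oct4:GFP transgene and Swiss-Webster females. The starting material was a pair of cell aliquots, 104000 and 97000 in number, and each supplied all 3 samples, with 2.4 µg of antibody per precipitation. Each mark was analysed as its 1 deposited list of regions on mouse genome build mm9. Input data are not used here. A region in these lists has a position but no count of reads, so its depth is unknown. No spread between replicates could be had and no test between samples could be made, so differences between sets of regions are given as values without a test. Expression was not measured in these files, so the sorted cell type could not be checked against its markers, and regions were not assigned to genes.

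H3K27me3 is written by Polycomb repressive complex 2 (PRC2) at genes held silent, and in mammals PRC2 is found above all at CpG-rich sequence with little transcription. H3K4me3 is written by SET1 and MLL (KMT2) complexes and marks CpG-rich promoters, active ones above all. Promoters that carry both marks, called bivalent, are known from developmental regulator genes of mouse embryonic stem cells, where the genes are silent or expressed at a low level. The precipitations were made separately on pooled cells, so an overlap of the lists does not show both marks on one nucleosome, on one allele or in one cell.

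The rule divided 10640 autosomal H3K27me3 regions of 1 to 6 kb. Of these, 3163 overlapped 1 H3K4me3 region, 300 overlapped 2, 7147 overlapped none and 30 overlapped 3 or more. The members thus made up 32.5% of the regions of this width (95% Wilson interval 31.7 to 33.4%). The intervals reflect counting error alone, as if regions were independent, and regions are not replicates. The share of members among the regions of this width ranged over the autosomes from 23.9% on chromosome 5 to 45.6% on chromosome 3. The members had a median H3K27me3 width of 2600 bp (quartiles 1600 and 4000 bp) and together covered 9933 kb, or 15.7% of all H3K27me3 length. At the lower limit of the rule, 256 of the 1328 regions of 1000 bp had 1 or 2 H3K4me3 regions (19.3%), and 300 of the 1553 regions of 800 bp did (19.3%). At the upper limit the numbers were 66 of 120 regions of 6000 bp (55.0%) and 54 of 98 regions of 6200 bp (55.1%). The shares on the 2 sides of either limit were thus nearly equal, and neither limit marks a step in this share.

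H3K4me3 at the members grew much less than H3K27me3 over the 6-fold range of H3K27me3 widths. The H3K4me3 span, from the first to the last base of the overlapping H3K4me3, had a median of 1200 bp (quartiles 800 and 2000 bp). It was 1000 bp at H3K27me3 regions of 1000 bp and 1700 bp at regions of 6000 bp. By width class the median span was 1000 bp at members of 1000 to 1800 bp, 1200 bp at members of 2000 to 3800 bp and 1600 bp at members of 4000 to 6000 bp. Spearman's rho between the 2 widths was 0.204 over the 3463 members, which share their pair of lists, the 200-bp grid and the requirement to overlap. The excess in width, H3K27me3 width minus H3K4me3 span, had medians of 200, 1400 and 3200 bp in the same 3 classes. It is a net figure, which H3K4me3 reaching beyond the member lowers, and the classes are cut by H3K27me3 width itself. The length under both marks had medians of 800, 1000 and 1400 bp in these classes.

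**Figure D1:**
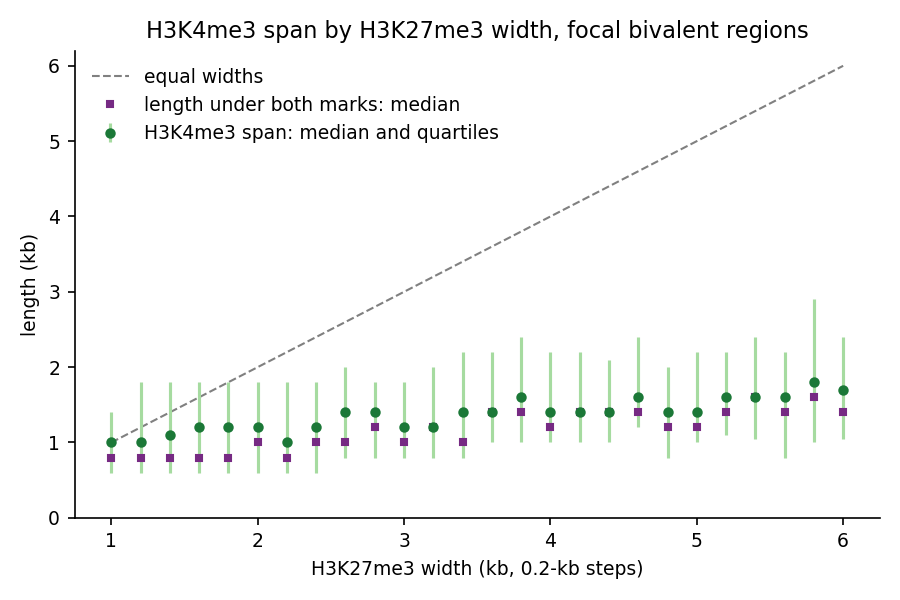
H3K4me3 span (circles, median with quartile bars) and length under both marks (squares, median) in kb against H3K27me3 width in kb at the 3463 focal bivalent regions. The dashed line marks equal widths, and the medians of the span stay between 1 and 1.8 kb while the H3K27me3 width grows to 6 kb.

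The sequence under both marks had a median length of 1000 bp (quartiles 600 and 1400 bp). In sum it came to 3772 kb, 38.0% of the members' H3K27me3 length. The remaining 6161 kb carried H3K27me3 without H3K4me3, whereas 1149 kb of the overlapping H3K4me3 regions lay outside the member. H3K4me3 covered a median of 38.9% of a member's width. It covered more than 50% of the width in 1132 members (32.7%) and the whole width in 312 (9.01%). In 2377 members (68.6%, 95% Wilson interval 67.1 to 70.2%) all of the H3K4me3 lay inside the H3K27me3 region.

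The H3K4me3 regions at the members were wider than those at sequence free of H3K27me3. The members met 3732 different H3K4me3 regions, whose width had its median at 1200 bp and its quartiles at 600 and 1800 bp. Among the 38048 autosomal H3K4me3 regions that overlapped no H3K27me3, the median was 600 bp and the quartiles 200 and 1400 bp. Single-step regions of 200 bp were 12.6% of the H3K4me3 regions at members (95% Wilson interval 11.54 to 13.7%) and 27.8% of the H3K4me3 regions without H3K27me3 (27.3 to 28.2%). Wide regions meet another list more often by their size alone, and the part of width in this difference was not tested. Of the 3732 regions, 88 (2.36%) also overlapped another H3K27me3 region, so 119 members (3.44%) shared H3K4me3 with a neighbouring H3K27me3 region and are not separate from it.

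H3K27me3 was the mark that extended further at most members. It was wider than the H3K4me3 span in 2748 of 3463 members (79.4%, 95% Wilson interval 77.97 to 80.7%), equal in 200 (5.78%) and narrower in 515 (14.9%, 13.7 to 16.1%). The median of H3K27me3 width minus H3K4me3 span was 1200 bp (quartiles 400 and 2400 bp). The extremes were 5800 bp in favour of H3K27me3 and 7800 bp in favour of H3K4me3. Since every member is at least 1 kb wide and H3K4me3 regions are often narrower than that, the rule itself favours this arrangement.

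Looked at end by end, H3K27me3 reached further out at 4457 of the members' 6926 ends (64.4%), H3K4me3 at 1168 (16.9%), and both stopped at the same base at 1301 (18.8%). Where H3K27me3 went further, it did so by a median of 1000 bp (quartiles 600 and 1800 bp). Where H3K4me3 went further, the median was 800 bp (400 and 1400 bp). The lower and upper ends of the coordinates gave nearly the same share for H3K27me3, 64.4% and 64.3%. Shared ends stood out among the differences: 1301 ends coincided, against 359 where H3K27me3 went 200 bp further and 218 where H3K4me3 did. Whether the segmentation was run on both marks together is not stated in the labels or files, and its part in the shared ends was not tested.

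**Figure D2:**
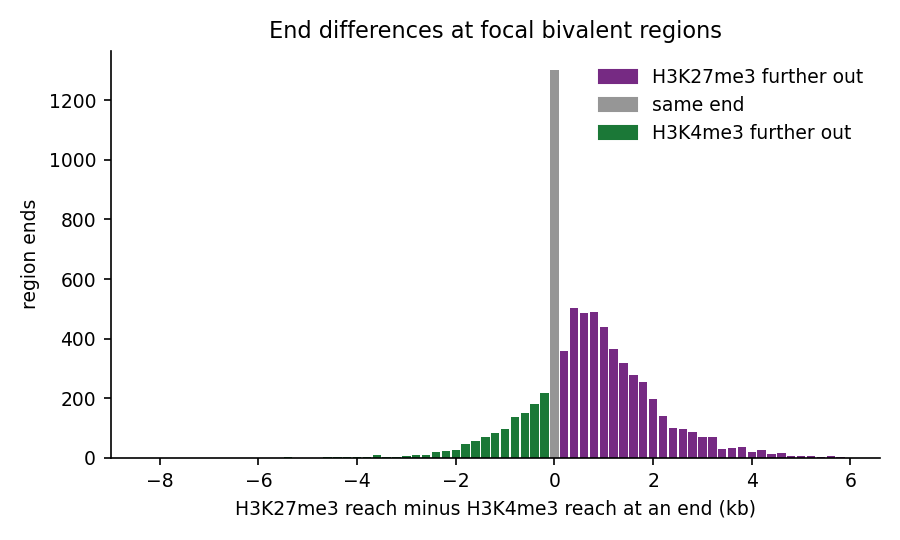
Number of region ends by the reach of H3K27me3 minus that of H3K4me3 (kb, in 0.2-kb steps) at the 6926 ends of the focal bivalent regions. Values above 0 (purple) mean that H3K27me3 went further, and the tallest bar is the 1301 ends that coincide.

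Taking both ends together, the members fell into 6 arrangements. H3K27me3 flanked the H3K4me3 on both sides in 1386 members (40.0%, 95% Wilson interval 38.4 to 41.7%). It went further on 1 side with the other end shared in 863 (24.9%, 23.5 to 26.4%). In 822 members (23.7%, 22.3 to 25.2%) the marks were staggered, each reaching out on its own side, with H3K27me3 at the lower coordinate in 432 and at the higher coordinate in 390. Both ends coincided in 128 (3.70%). H3K4me3 went further on 1 side with the other end shared in 182 (5.26%), and on both sides in 82 (2.37%).

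The arrangement changed with H3K27me3 width. H3K27me3 lay on both sides in 13.5% of the members of 1000 to 1800 bp (154 of 1143), in 44.3% of those of 2000 to 3800 bp (644 of 1453) and in 67.8% of those of 4000 to 6000 bp (588 of 867). The staggered arrangement was found in 29.3%, 24.0% and 15.9% of the same classes. H3K4me3 was the wider mark in 349 of 1143 (30.5%), 137 of 1453 (9.43%) and 29 of 867 (3.34%). Members with H3K27me3 on both sides had a median H3K27me3 width of 3600 bp and a median H3K4me3 span of 1000 bp. The staggered members had 2200 bp of H3K27me3 and 1800 bp of H3K4me3, and the 82 members enclosed by H3K4me3 had 1400 bp of H3K27me3 and 3000 bp of H3K4me3. The width of H3K27me3 is a term of the rule, so these shares describe the members and were not tested.

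**Figure D3:**
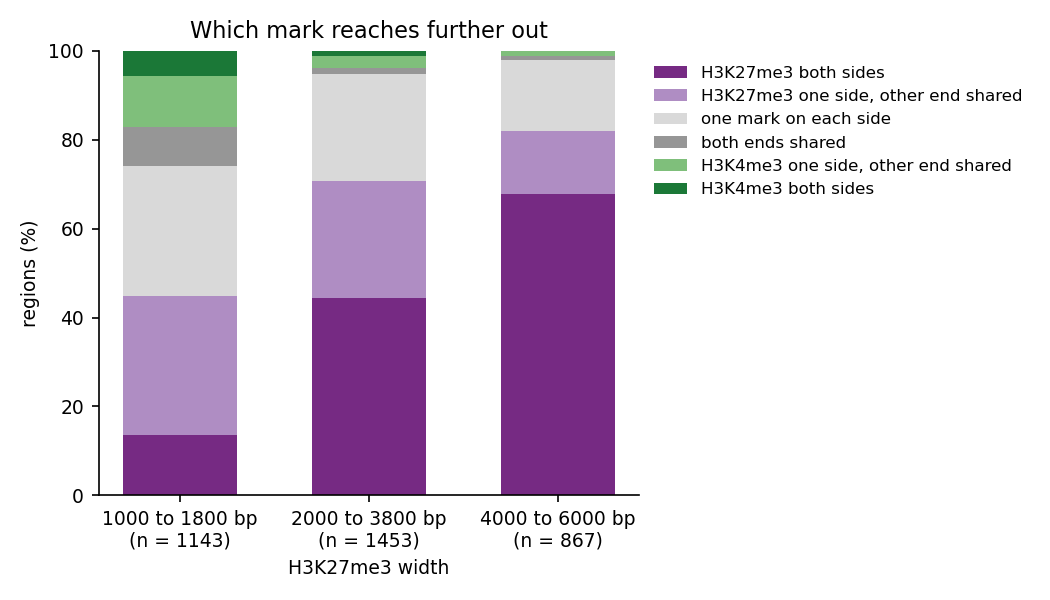
Share of focal bivalent regions (%) in each of 6 arrangements of the ends of the marks, for 3 classes of H3K27me3 width with the number of regions under each bar. The share with H3K27me3 on both sides (dark purple) is 13.5%, 44.3% and 67.8%, and the share with H3K4me3 on both sides (dark green) is 5.69%, 1.10% and 0.115%.

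The members with the most sequence under both marks were nearly filled by H3K4me3, which the limit of 6 kb on width itself favours. In the first, 6 kb on chromosome 14 (47005001 to 47011000), H3K4me3 regions of 5600 and 200 bp left only 200 bp free. The second, on chromosome 17 (39979801 to 39985800, 6 kb), held regions of 3800 and 2000 bp, and its nearest other H3K27me3 regions lay 1854000 and 2466200 bp away. Whether this sequence is repeated in the genome, so that reads could pile up there in both libraries, was not tested. The others were on chromosome 7 (152123601 to 152129600), chromosome 17 (71197601 to 71203000) and chromosome 12 (81210001 to 81216000), with 5400, 5400 and 5200 bp under both marks. The centres of the marks lay 0 to 200 bp apart in 4 of these 5 members and 1200 bp apart in the member on chromosome 12.

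At the other extreme were members with most of their H3K4me3 outside the H3K27me3 region. Chromosome 18, from which no region is named here, is left out of this order and held a member whose H3K4me3 reached 8200 bp beyond 1 end. Among the others, on chromosome 11 an H3K27me3 region of 1 kb (23974001 to 23975000) lay at the start of an H3K4me3 region of 8.8 kb, of which 7800 bp were outside it. The next 4 each had 5400 bp of H3K4me3 outside the H3K27me3 region. On chromosome 2 (22478401 to 22483200) the H3K4me3 region of 7 kb reached 5400 bp beyond the lower end while H3K27me3 reached 3200 bp beyond the other. On chromosome 15 (98462401 to 98463600) an H3K27me3 region of 1.2 kb was enclosed by 6.6 kb of H3K4me3. The other pair, on chromosome 2 (9794401 to 9800200) and chromosome 11 (68932801 to 68936600), had H3K4me3 spans of 9.4 and 9.2 kb. In 3 of these 5, the first and this last pair, the H3K4me3 also overlapped a further H3K27me3 region.

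The centres of the marks lay close together in absolute terms, which the required overlap and the limit of 6 kb on width favour. The offset, the H3K4me3 centre minus the H3K27me3 centre along the chromosome, had a median size of 500 bp at members (quartiles 200 and 1000 bp). At regions with 1 or 2 H3K4me3 regions outside the width limits, the median was 100 bp under 1 kb and 1600 bp over 6 kb. Among the members the offset was distributed as follows. It was 0 in 275 members (7.94%), at most 200 bp in 901 (26.0%), over 1000 bp in 760 (21.9%) and over 2000 bp in 150 (4.33%). The H3K4me3 centre lay towards higher coordinates in 1592 members and towards lower coordinates in 1596, with a median signed offset of 0 bp, so neither direction along the chromosome prevailed. In 364 members (10.5%) the centre of the H3K4me3 lay outside the H3K27me3 region. Orientation by transcription was not analysed here.

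The offset grew with width in bp and shrank as a share of it. Its median was 400 bp, 600 bp and 800 bp in members of 1000 to 1800, 2000 to 3800 and 4000 to 6000 bp. As a percentage of H3K27me3 width the medians were 25%, 21.4% and 16%. The staggered members had the largest median offset, 1100 bp, followed by 500 bp for H3K27me3 on 1 side with the other end shared and 400 bp for H3K27me3 on both sides. A staggered pair of regions must be off centre, so this order follows in part from how the arrangements are defined.

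Flanked H3K4me3 was seldom exactly centred. Among the 1386 members with H3K27me3 on both sides, the shorter shoulder of H3K27me3 had a median of 600 bp (quartiles 400 and 1000 bp) and the longer one 1600 bp (1000 and 2200 bp). The shoulders were equal in 134 (9.67%, 95% Wilson interval 8.22 to 11.3%), and 1 was at least 3 times the other in 475 (34.3%, 31.8 to 36.8%). Ends lie on a 200-bp grid, so shoulders can be equal only where they sum to an even number of steps. These shares were not set against random placement. Of the 3163 members with 1 H3K4me3 region, 2089 (66.0%) enclosed it in a wider H3K27me3 region, shared ends included. In these the offset had a median of 400 bp. Taken for each member as a percentage of the room that the difference in widths left on either side, it had a median of 60%. An H3K4me3 region that shares 1 end is at 100% by definition, which holds for 786 of the 2089. These members raise the median.

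The enclosed members with the largest offsets carried a very narrow H3K4me3 region at one end, which the limit of 6 kb on width favours in this ranking. The largest, 2800 bp, were found on chromosome 9 (46617201 to 46623200), where the last 400 bp of 6 kb carried H3K4me3, and on chromosome 11 (118386201 to 118392000), where the last 200 bp of 5.8 kb did. The next, of 2700 bp, were on chromosome 7 (52602001 to 52607800), chromosome 13 (93860001 to 93866000) and chromosome 14 (26405001 to 26410600), with H3K4me3 regions of 400, 600 and 200 bp. In all 5 the H3K4me3 region shared its outer boundary with the H3K27me3 region, at the lower coordinate on chromosome 7 and at the higher coordinate in the others. Regions this narrow are 1 to 3 steps of the grid, and without read counts their depth is unknown.

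The 300 members with 2 H3K4me3 regions were wider than the 3163 with 1. Their median H3K27me3 width was 3800 bp against 2600 bp, and their H3K4me3 span 2800 bp against 1200 bp. They were 3.41% of the members of 1000 to 1800 bp, 8.53% of those of 2000 to 3800 bp and 15.8% of those of 4000 to 6000 bp. The gap between the 2 H3K4me3 regions had a median of 600 bp (quartiles 400 and 1400 bp) and was 400 bp or less in 129 (43%), so many pairs are separated by 1 or 2 steps of the grid. The pair was usually unequal, with medians of 1400 bp for the wider and 400 bp for the narrower region, and the narrower measured 200 or 400 bp in 177 (59%). H3K27me3 flanked both sides in 27.7% of the members with 2 regions (83 of 300, 95% Wilson interval 22.9 to 33.0%) and in 41.2% of those with 1 (1303 of 3163, 39.5 to 42.9%). A wider H3K27me3 region has more room to meet a second H3K4me3 region, and the span of 2 regions includes their gap. The widths, spans and arrangement thus follow in part from the choice of members with 2 regions, and that part was not tested.

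The widest gaps placed an H3K4me3 region at each end of the H3K27me3 region, which the limit of 6 kb on width favours. On chromosome 1 (184884801 to 184890600) and on chromosome 9 (118515601 to 118521400), members of 5.8 kb carried H3K4me3 at both ends with 4400 bp between. On chromosome 2 (157284201 to 157288800) the gap was 4200 bp between regions of 200 bp each. Members on chromosome 5 (52862401 to 52868200) and chromosome 12 (86487401 to 86492000) had gaps of 4000 and 3800 bp. In these 5 the outer ends of the H3K4me3 lay within 600 bp of those of the H3K27me3.

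The members lay in neighbourhoods with less H3K27me3 than regions of the same width range without H3K4me3. Other H3K27me3 regions covered on average 10.7% of the 10 kb on either side of a member (median 1%, quartiles 0 and 16%). At the 7147 H3K27me3-only regions of 1 to 6 kb the mean was 21.1% (median 16%, quartiles 2 and 35%), a difference of members minus H3K27me3-only of -10.4 percentage points. At 1707 members (49.3%, 95% Wilson interval 47.6 to 50.96%) no other H3K27me3 lay within 10 kb, whereas this held for 1680 H3K27me3-only regions (23.5%, 22.5 to 24.5%). Other H3K27me3 lay on both sides within 10 kb at 576 members (16.6%) and at 2645 H3K27me3-only regions (37.0%). The flanks lie outside the sequence used by the rule, but neighbouring regions share their surroundings and no test over independent samples could be made.

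The difference was present in each width class and on each autosome. Mean flank coverage was 7.88% at members of 1000 to 1800 bp and 17.7% at H3K27me3-only regions of that width. At 2000 to 3800 bp it was 10.3% at members and 22.9% at H3K27me3-only regions, and at 4000 to 6000 bp it was 14.95% at members and 29.1% at H3K27me3-only regions. Weighted by the number of members in each class, the difference was -12.1 percentage points. Members had the lower mean on 19 of 19 autosomes, with differences between -15.1 percentage points on chromosome 16 and -5.93 on chromosome 7. The members' own mean ran from 5.43% on chromosome 3 to 14.3% on chromosome 11.

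**Figure D4:**
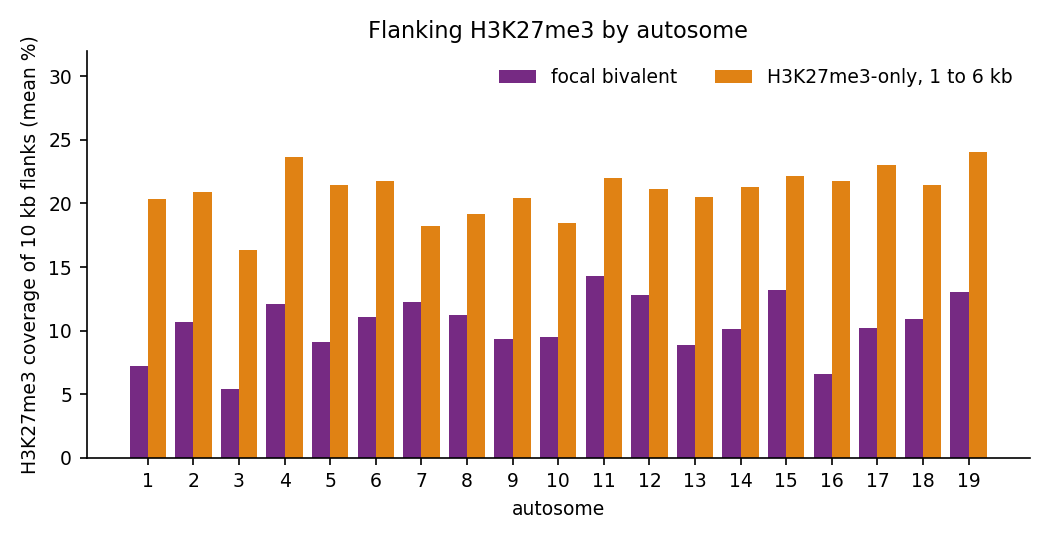
Mean H3K27me3 coverage (%) of the 10 kb on either side of focal bivalent regions (purple) and of H3K27me3-only regions of 1 to 6 kb (orange), for each autosome. The purple bar is the lower one on all 19, with 100 to 309 focal bivalent regions behind each.

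With distance, flanking H3K27me3 was low next to the members, peaked a few kb out and then declined slowly. Coverage was 3.62% in the first kb, 12.3% between 3 and 4 kb and 8.95% between 19 and 20 kb. At H3K27me3-only regions the same steps gave 4.77%, 24.1% and 20.2%. At the 1209 H3K27me3 regions over 6 kb with 1 or 2 H3K4me3 regions they gave 6.77%, 30.5% and 21.5%. The first kb is low in all 3 sets by construction, since a region ends where H3K27me3 stops. In windows of 50 kb on either side the means were 9.01% at members and 18.9% at H3K27me3-only regions. The 1507 regions under 1 kb with 1 or 2 H3K4me3 regions were nearer to the members, at 8.94% of the 10 kb flanks.

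**Figure D5:**
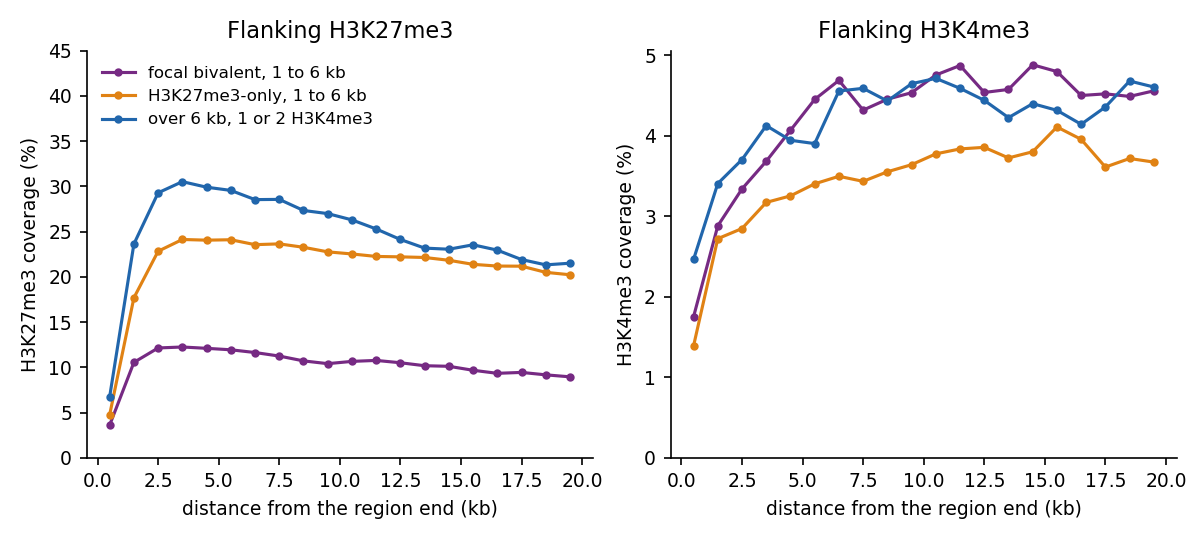
Coverage (%) of successive 1-kb steps from 0 to 20 kb outside the region ends by other H3K27me3 regions (left) and other H3K4me3 regions (right; the overlapping H3K4me3 is not counted). On the left the focal bivalent regions reach 12.3% at 3 to 4 kb against 24.1% for H3K27me3-only regions, and on the right 4.54% against 3.64% at 9 to 10 kb.

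The nearest other H3K27me3 region lay a median of 9600 bp from a member (quartiles 1600 and 67800 bp). For H3K27me3-only regions the median was 2600 bp (1000 and 8800 bp). On the far side the nearest region of the members was a median of 122400 bp away, and that of the H3K27me3-only regions 19800 bp. No other H3K27me3 lay within 50 kb of 1008 members (29.1%, 95% Wilson interval 27.6 to 30.6%) and of 556 H3K27me3-only regions (7.78%, 7.18 to 8.42%). Dense surroundings were the exception: coverage reached 50% or more of the 10 kb flanks at 130 members (3.75%) and at 771 H3K27me3-only regions (10.8%).

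The kinds of H3K27me3 region found nearest to a member were close to their shares in the whole list. Of the 1756 members with other H3K27me3 within 10 kb, the nearest H3K27me3 region overlapped H3K4me3 in 707 (40.3%, 95% Wilson interval 37.99 to 42.6%), while 37.6% of all 17500 H3K27me3 regions on the autosomes outside the stretch of chromosome 5 did so (6584 regions, 36.9 to 38.3%). Of the 5467 H3K27me3-only regions with such a neighbour it did so in 1476 (26.998%, 25.8 to 28.2%). The nearest neighbour was itself a focal bivalent region for 370 of the 1756 (21.1%), an H3K27me3-only region of 1 to 6 kb for 660 (37.6%) and wider than 6 kb for 221 (12.6%). Among the 17500 regions these kinds made up 19.8%, 40.8% and 12.8%. That list also holds regions with no neighbour within 10 kb, so it is not a like set. Against H3K27me3-only regions with such a neighbour, the nearest region overlapped H3K4me3 more often at members. The 119 members that share H3K4me3 with a neighbouring H3K27me3 region were not set apart.

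The members with the densest surroundings lay a short gap away from other H3K27me3 on at least 1 side, as coverage this high requires. The highest flank coverage, 95%, was on chromosome 12 (27997001 to 28000200, 3.2 kb), with 400 and 600 bp to the neighbouring H3K27me3 regions. Members on chromosome 14 (26424801 to 26426000), chromosome 13 (40814001 to 40817600) and chromosome 11 (69251201 to 69256400 and 96886401 to 96887600) followed with 93%, 92%, 90% and 89%. In these 5 members the nearer neighbour began 400 or 600 bp away, and in the member on chromosome 14 the H3K4me3 also overlapped a further H3K27me3 region.

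Isolated and crowded members had H3K27me3 on both sides about equally often but differed in H3K27me3 width. H3K27me3 flanked both sides in 39.1% of the 1008 members with no other H3K27me3 within 50 kb (95% Wilson interval 36.1 to 42.1%) and in 40.1% of the 1756 with other H3K27me3 within 10 kb (37.8 to 42.4%). The isolated members were somewhat narrower, with a median H3K27me3 width of 2400 bp against 2800 bp, and their H3K4me3 span was 1400 bp against 1200 bp. The median of H3K27me3 width minus H3K4me3 span was 1000 bp in isolated and 1500 bp in crowded members, and the median offset 400 bp and 600 bp. The medians of span and of offset lay within 1 step of the grid of each other. Offset also grew with width, and members of like width were not compared. By arrangement, other H3K27me3 lay within 10 kb of 57.0% of the members with H3K27me3 further on 1 side and the other end shared. It did so for 35.9% of those with both ends shared, 38.5% of those with H3K4me3 further on 1 side and 32.9% of those with H3K4me3 further on both. The last 3 arrangements were also the narrowest in H3K27me3, with medians of 1200, 1400 and 1400 bp, and the part of width was not tested. Other H3K4me3 covered 1.67% of the 10 kb flanks of isolated members and 5.36% of those of crowded members.

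The offset bore no visible relation to the side of the neighbour. Where other H3K27me3 lay within 10 kb on 1 side only and the centres differed, the H3K4me3 centre was shifted towards that side in 547 of 1108 members (49.4%, 95% Wilson interval 46.4 to 52.3%). This share was 51.8% (46.4 to 57.1%) at members of 1000 to 1800 bp and 49.9% (45.4 to 54.4%) at 2000 to 3800 bp. At 4000 to 6000 bp it was lowest, 45.9% (40.4 to 51.5%), and the difference between classes was not tested. In the staggered members, other H3K27me3 lay within 10 kb on the side where H3K27me3 reached out in 258 of 822 (31.4%, 28.3 to 34.6%) and on the side where H3K4me3 reached out in 274 of 822 (33.3%, 30.2 to 36.6%).

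Flanking H3K4me3 covered slightly more sequence at members than at H3K27me3-only regions. H3K4me3 regions other than those overlapping the member covered 3.82% of the 10 kb flanks on average, against 3.09% at H3K27me3-only regions, and the mean was higher at members on 15 of 19 autosomes. At least 1 such region lay within 10 kb of 1675 members (48.4%, 95% Wilson interval 46.7 to 50.03%) and of 3200 H3K27me3-only regions (44.8%, 43.6 to 45.9%). These shares were 50.7% and 43.2% at widths of 1000 to 1800 bp. They were nearly equal at 2000 to 3800 bp (46.0% and 45.9%) and 49.3% and 47.8% at 4000 to 6000 bp. Mean coverage was higher at members in each class: 4.05% against 3.00%, 3.54% against 3.16% and 3.98% against 3.24%. The share depended on the window: within 20 kb it was 65.9% at members and 65.6% at H3K27me3-only regions, and within 50 kb it was lower at members, 84.1% (82.9 to 85.3%) against 87.1% (86.3 to 87.9%). The mean coverage stayed higher at members in the 50 kb flanks, at 4.51% against 3.57%. The H3K27me3 regions over 6 kb with 1 or 2 H3K4me3 regions had 3.98%, close to the members.

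The geometry was also described for each autosome. The share of members with H3K27me3 on both sides lay between 32.6% on chromosome 10 (95% Wilson interval 26.2 to 39.7%) and 45.9% on chromosome 18 (37.7 to 54.3%). These intervals treat regions as independent, and differences between chromosomes were not tested. The median offset ranged from 400 to 600 bp, the median H3K27me3 width from 2400 to 2900 bp, and the median of H3K27me3 width minus H3K4me3 span from 1000 to 1600 bp.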

How the data were processed

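H3K27me3 and H3K4me3 were measured by ChIP-seq in sorted E11.5 primordial germ cells. Per the labels' protocols, 0.25% formaldehyde fixed the cells. Bowtie 0.12.7 and build mm9 were used, per the submitters' processing notes. The authors deposited 1 list per mark, which holds the chromosome, start, end and name of contiguous ChromHMM regions (chromatin states assigned in fixed bins), per the file names, and no count or score. All ends lie on a 200-bp grid. Not given in the sources used here are the ChromHMM settings, the use of the input and the pooling of replicates. Depth is unknown.

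Ends, centres and flanks (1 to 50 kb) were compared on the grid, and coordinates count from 1. Shares have 95% Wilson intervals. The procedure was tested on simulated data. Members and measures were chosen with earlier results of these data known. Regions were named by rank, 5 in each of 5 lists, ties by position, on autosomes other than 18. Alternatives changed the overlap, joining, widths, ends, centres, flanks and chromosomes. Genes and sequences were not analysed here, since no mm9 annotation or genome was used. Calculations used scipy 1.17.1, pandas 2.3.3, numpy 2.4.6 and matplotlib 3.10.9 under Python 3.11.15.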

Additional observations from a re-analysis of the deposited data

How the results depend on the processing

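The 8 results were recomputed under alternatives, which gave 76 values: 62 alike, 14 moved and 0 with a changed direction. Only the median excess in width and the flank difference from H3K27me3-only regions could change sign. Counts, shares, coverages and the absolute offset cannot be negative, so for them the 0 was fixed in advance. Alike means within 1.5 times for counts and coverages, within the Wilson interval for shares and within 1 step of 200 bp for medians. The number of members was 1975 for widths of 2000 to 5000 bp and 2290 without members that share an end with their H3K4me3. The share with H3K27me3 on both sides, 40.0% as reported, became 44.3% when the overlap had to reach 50% of the shorter region, 37.9% without H3K4me3 regions of 200 and 400 bp, 49.8% for widths of 2000 to 5000 bp, 60.5% without shared ends, and 33.0% with ends up to 200 bp apart taken as shared, a setting chosen after seeing the data. The median excess in width, 1200 bp as reported, became 1800 bp for widths of 2000 to 5000 bp and 1600 bp without shared ends. The share of members with other H3K27me3 within 10 kb, 50.7% as reported, became 48.1% with an overlap of 400 bp, 42.1% with regions joined over 1 kb, 47.2% without narrow H3K4me3, 41.8% within 5 kb and 59.2% within 20 kb. The settings on width and shared ends leave out members by construction. Taking ends up to 200 bp apart as shared can only lower the share with H3K27me3 on both sides. A narrower or wider flank can only lower or raise the share with other H3K27me3, and joining removes every neighbour nearer than 1 kb. The causes of the other moves were not tested. The flank difference from H3K27me3-only regions ran from -12.7 to -8.56 percentage points over all its alternatives. No paired analysis was possible because each mark has 1 list, and for the same reason no replicate could be left out. How depth limited the detection of regions is unknown, since no read counts were used.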

Other observations

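Regions that met the rule except for their place in the genome were described separately. On X, 196 of 347 H3K27me3 regions of 1 to 6 kb overlapped 1 or 2 H3K4me3 regions (56.5%, 95% Wilson interval 51.2 to 61.6%), against 32.5% (31.7 to 33.4%) on the autosomes outside the stretch of chromosome 5. Their median H3K27me3 width was 2000 bp against 2600 bp, their median H3K4me3 span 1400 bp against 1200 bp and their median offset 300 bp against 500 bp. Other H3K27me3 covered 4.60% of their 10 kb flanks, against 10.7%. H3K27me3 lay on both sides in 64 (32.7%, 26.5 to 39.5%), against 40.0%. Depth on X is unknown, and its part in these values was not tested.

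In the stretch of chromosome 5 from 111 to 122 Mb, 45 of 372 H3K27me3 regions of 1 to 6 kb overlapped 1 or 2 H3K4me3 regions (12.1%, 9.16 to 15.8%). Their median H3K4me3 span was 400 bp against 1200 bp in the members, and other H3K27me3 covered 33.3% of their 10 kb flanks against 10.7%. The 30 regions of 1 to 6 kb with 3 or more H3K4me3 regions had a median H3K27me3 width of 4600 bp and a median H3K4me3 span of 4800 bp. H3K27me3 lay on both sides in 3 of the 30, and other H3K27me3 covered 21.3% of their flanks. These sets were described after the values of the members were known and were not tested.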
